A study of Rattus norvegicus with 2 samples.

Results

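Pdia5, Clec3b and Mrps10 were followed in single-cell libraries of rat optic nerve cells, because earlier results of these data showed all 3 far lower in Nuc1 than in WT cells. They are 3 of the 25399 genes listed in the files, and they were found by their symbols. The genes were chosen by their UMIs per 1000000 in the 2 libraries, so the difference is given below as a description, and no test was made of it.

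Pdia5 encodes a protein disulfide isomerase, an enzyme of the endoplasmic reticulum that makes and rearranges disulfide bonds in newly made proteins, and it has been linked to the activation of ATF6, a sensor of unfolded protein. Clec3b encodes tetranectin, a secreted protein with a C-type lectin domain that binds plasminogen and is found in extracellular matrix. Mrps10 encodes a protein of the small subunit of the mitochondrial ribosome, which translates the messenger RNAs of the mitochondrial genome.

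One library was made from WT rats (Sprague Dawley in the study's methods) and 1 from Nuc1 rats, which carry a spontaneous insertion mutation in Cryba1, the gene of βA3/A1-crystallin. The series title and the methods describe mixed primary cultures of optic nerve cells, whereas the design text describes a suspension made from digested nerve. The labels give postnatal day 7 for both libraries, the study's culture methods name pups of 2 days, and the number of animals behind each is not given in the sources used here. Neither library is described as treated, and 1 library per genotype leaves the difference between the genotypes without a replicate check.

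Each value rests on unique molecular identifiers (UMIs), which count captured transcript molecules at their 3′ ends. After filtering, 1961 WT cells with 33814309 UMIs and 1780 Nuc1 cells with 34644332 UMIs were kept. The median per cell was 14050 UMIs in WT and 16567.5 in Nuc1, and the median share of mitochondrial UMIs was 9.27% and 9.32%. Among the kept cells, 2 barcodes occurred in both libraries (0.102% of the WT and 0.112% of the Nuc1 cells), and none of these cells had a UMI of Pdia5, Clec3b or Mrps10. Cryba1 had 0 UMIs in both libraries, so the genotype labels could not be checked from it. UMIs of the Y-linked genes Eif2s3y or Kdm5d were found in 411 Nuc1 cells and in 1 WT cell, so the libraries also differed in Y-linked transcripts. Levels are UMIs of a gene per 1000000 UMIs of the same cells (CPM), and all intervals are exact 95% intervals that cover counting error only.

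Pdia5 (ENSRNOG00000032327) was counted 559 times in WT and 14 times in Nuc1 cells. The levels were 16.5 CPM (Poisson interval 15.2 to 18.0) in WT and 0.404 CPM (0.221 to 0.678) in Nuc1. The level was thus 40.9-fold lower in Nuc1 (24.2 to 75.3), a log2 ratio of Nuc1 over WT of −5.35. The promoter of Pdia5 is shown, as is that of Mrps10, so that the start regions of genes that were lower together can be compared. In the RefSeq sequence of the build GRCr8 it lies at chr11:78777258-78777557 on the plus strand, and runs from 250 bases before the transcription start to 50 after it.
Pdia5: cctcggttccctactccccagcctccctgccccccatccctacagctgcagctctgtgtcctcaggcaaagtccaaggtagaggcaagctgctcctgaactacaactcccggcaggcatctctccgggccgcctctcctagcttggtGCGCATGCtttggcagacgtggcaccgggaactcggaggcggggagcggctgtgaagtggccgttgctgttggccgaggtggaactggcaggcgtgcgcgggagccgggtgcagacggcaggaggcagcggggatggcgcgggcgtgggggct
The capitals mark GCGCATGC, part of the motif of the factor NRF1, which was found in 2.66% of 27457 promoters of the same length. G and C made up 67.7% of these bases, against a median of 52.3% over all promoters.

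Mrps10 (ENSRNOG00000022609) had 474 UMIs in WT and 44 in Nuc1. Its levels were 14.02 CPM (12.8 to 15.3) and 1.27 CPM (0.923 to 1.70). Mrps10 was 11.04-fold lower in Nuc1 (8.09 to 15.4), a log2 ratio of −3.46, the closest to 0 of the 3. Its promoter lies in GRCr8 at chr9:21122404-21122703 on the minus strand and is shown 5′ to 3′.
Mrps10: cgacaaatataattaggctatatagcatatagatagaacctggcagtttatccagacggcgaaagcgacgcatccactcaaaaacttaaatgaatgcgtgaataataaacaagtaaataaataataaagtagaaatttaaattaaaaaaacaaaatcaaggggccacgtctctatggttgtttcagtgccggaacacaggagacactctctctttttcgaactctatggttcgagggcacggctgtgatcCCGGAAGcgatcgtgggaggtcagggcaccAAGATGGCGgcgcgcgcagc
The capitals mark CCGGAAG, an ETS site at the transcription start itself, and AAGATGGCG, a YY1 site 31 bases from it. The ETS letters were found in 9.22% of all promoters and in 7 of 25 promoters of other small mitoribosomal subunit genes (28%), and the YY1 letters in 1.93% of all promoters and in 3 of those 25 (12%). G and C made up 43.7% of the Mrps10 promoter, against 67.7% of that of Pdia5. The full marked motifs were not shared, but the letters GATGGCG, which end the YY1 site, also occur in the Pdia5 sequence. How common these letters are was not counted. Neither promoter held CCAAT, found in 37.7% of all promoters, or the GC box GGGCGG, found in 34.9%, on either strand. The motifs were chosen after the sequences were seen, so that whether they are shared is no comparison of the promoters. A match is a run of letters, not a measured site. Of the 3 genes, Pdia5 and Mrps10 had a promoter entry, and Clec3b did not.

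Clec3b (ENSRNOG00000004540) had 1982 UMIs in WT and 85 in Nuc1. The levels were 58.6 CPM (56.1 to 61.2) and 2.45 CPM (1.96 to 3.03). Clec3b was 23.9-fold lower in Nuc1 (19.2 to 30.04), a log2 ratio of −4.58. None of the 3 pairs of intervals overlapped. Larger sums part at small ratios too: Pdia6, at a log2 ratio of −0.25, had 506 CPM (498 to 513) in WT and 426 CPM (419 to 433) in Nuc1. How many of all genes had intervals apart was not counted.

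Among 11290 genes with at least 100 UMIs over both libraries, 126 were at least 4-fold lower in Nuc1 (1.12%) and 284 were at least 4-fold higher (2.52%), after 0.5 UMIs were added to each sum. All 3 genes belonged to the 126, as the choice of the genes required. The log2 ratio was as low as that of Pdia5 in 4 genes including itself, as low as that of Clec3b in 11 and as low as that of Mrps10 in 22. With levels scaled to the total of each library, the median log2 ratio of all genes was −0.01. This describes the scaled levels and cannot show a shift that such scaling removes.

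**Figure D1:**
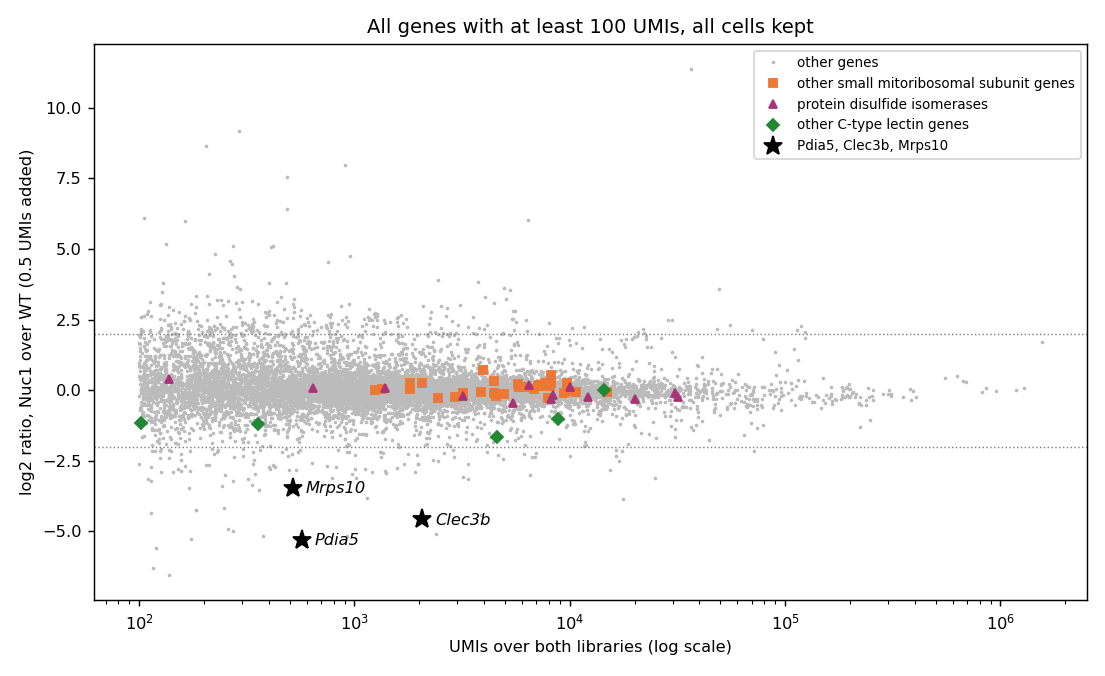
Each point is 1 of 11290 genes, with its UMIs over both libraries on the horizontal log axis and its log2 ratio of Nuc1 over WT (0.5 UMIs added to each sum) on the vertical axis, and dotted lines mark a fold of 4. Stars show Pdia5, Clec3b and Mrps10 below the lower line, while the other disulfide isomerases (triangles), small mitoribosomal subunit genes (squares) and C-type lectin genes (diamonds) lie between the lines.

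The cells fell into 10 clusters. Cluster 3 was called astrocyte-like from Gfap, Hspb1, Fabp7 and Aqp4, cluster 5 dividing-like, cluster 6 motile cilia-like, cluster 7 oligodendrocyte lineage-like and cluster 9 macrophage and microglia-like. Clusters 0, 1, 2, 4 and 8 kept their numbers and are called collagen-rich. Col1a1, Col1a2, Col3a1, Dcn and Lum together exceeded 2000 CPM there, and no other name applied to these clusters. Cluster 8 was the least clear of them, with 2633 CPM of these 5 genes beside 7382 CPM of the 9 astrocyte markers. Their leading genes were Igfbp5 and Ccn3 in cluster 0, Actg2 and Penk in cluster 1, Cldn11 and Thbd in cluster 2, Inmt and Cyp26b1 in cluster 4, and Ttr and Gldn in cluster 8. Collagen-rich clusters held 1620 WT and 1218 Nuc1 cells, and the astrocyte-like cluster 106 and 349. The dividing-like cluster also had 7627 CPM of the 5 collagen-rich genes. It is kept apart because its dividing markers named it. Nuc1 had 10 cells in cluster 7 and 22 in cluster 9, the latter with a median of 1807.5 UMIs, so that levels of the 3 genes there are imprecise.

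In the WT library, Pdia5 was found in every cluster but the macrophage and microglia-like one. It was highest in cluster 1 at 22.8 CPM and in the dividing-like cluster at 22.5 CPM, which did not differ beyond counting error, and both lay above cluster 2 at 15.5 CPM. From there down, no neighbours in the order differed beyond counting error: cluster 8 (12.4 CPM), the motile cilia-like cluster (11.9), cluster 0 (11.8), cluster 4 (10.0), the astrocyte-like cluster (7.91) and the oligodendrocyte lineage-like cluster (3.82, from 3 UMIs). Further apart in this order, the interval of cluster 2 (12.3 to 19.2 CPM) lay above that of the astrocyte-like cluster (4.96 to 12.0). Pdia5 UMIs thus occurred in clusters of different kinds in WT. How much of them was free RNA was not tested, for any of the 3 genes.

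In cluster 1, 248 Pdia5 UMIs in 608 WT cells stood against 0 in 232 Nuc1 cells. The level was at least 31.5-fold lower by the exact interval of the ratio, and 39.0-fold lower if Nuc1 is set to the floor of 3 UMIs over the group that a count of 0 allows. In the astrocyte-like cluster, 22 UMIs in 106 WT cells stood against 0 in 349 Nuc1 cells, at least 17.6-fold lower by the exact interval and 23.6-fold at the floor. Here the Nuc1 library had more cells than WT and no Pdia5 UMI.

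Elsewhere Pdia5 had 99 UMIs in WT and 3 in Nuc1 in cluster 0 (log2 ratio −4.44), 81 and 4 in cluster 2 (−3.95), and 88 and 1 in the dividing-like cluster (−5.70). In cluster 4, where Nuc1 had 368 cells and WT 53, it had 7 WT and 3 Nuc1 UMIs, or 10.0 and 0.525 CPM (−4.26, interval −6.84 to −2.13). In the motile cilia-like cluster 5 and 1 UMIs gave 11.9 and 0.449 CPM. Cluster 8 had 6 and 2 UMIs and an interval of the log2 ratio from −5.31 to 0.52. The oligodendrocyte lineage-like cluster had 3 and 0 UMIs, with an interval up to 4.16. The macrophage and microglia-like cluster had 0 UMIs in both libraries. A fall of Pdia5 was not detectable in cluster 8 or in these last clusters.

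Clec3b had a different distribution in WT. It was highest in cluster 0 at 93.5 CPM and cluster 4 at 90.4 CPM, which did not differ beyond counting error, then fell to 62.9 CPM in cluster 1 and 46.9 CPM in cluster 2, both steps beyond counting error. Cluster 8 (37.3 CPM), the dividing-like (30.4), the motile cilia-like (23.8) and the astrocyte-like cluster (19.4) followed, with no neighbours in this order apart by more than counting error. Over more steps, the interval of cluster 2 (41.3 to 53.2 CPM) lay above that of the astrocyte-like cluster (14.6 to 25.3). The oligodendrocyte lineage-like cluster was lower again, at 5.09 CPM. The highest levels of the tetranectin gene in WT were thus in collagen-rich clusters.

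In Nuc1, Clec3b fell from 783 to 7 UMIs in cluster 0, the lowest log2 ratio of Clec3b among clusters with at least 20 UMIs, at −6.20 (−7.52 to −5.15). Cluster 1 went from 685 to 10 UMIs (−5.01), cluster 2 from 246 to 6 (−4.97) and the dividing-like cluster from 119 to 2 (−5.14). The astrocyte-like cluster had 54 UMIs in WT and 11 in Nuc1, or 19.4 and 1.23 CPM (−3.98, −5.07 to −3.03).

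The fall of Clec3b was not of 1 size. Cluster 4 had 63 UMIs in WT and 40 in Nuc1, or 90.4 and 7.00 CPM (−3.69, −4.30 to −3.10), and cluster 8 had 18 and 8 UMIs, or 37.3 and 12.7 CPM (−1.55, −2.96 to −0.28). The intervals of clusters 4 and 8 did not overlap that of cluster 0, which had the lowest ratio, and neither did that of the astrocyte-like cluster. The interval of cluster 4 did overlap those of cluster 1 (−6.08 to −4.13) and cluster 2 (−6.43 to −3.83). In Nuc1, cluster 8 (12.7 CPM) and cluster 4 (7.00 CPM) were the highest and did not differ beyond counting error, and cluster 4 lay above the next, cluster 1 (1.94 CPM). Within the Nuc1 library 47.1% of all Clec3b UMIs came from cluster 4. Whether this difference between clusters would recur in other libraries was not tested.

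The level of Mrps10 in WT ran from 4.14 CPM in cluster 8 (2 UMIs) to 29.3 CPM in the oligodendrocyte lineage-like cluster (23 UMIs), and no neighbours in the order of levels differed beyond counting error. Clusters further apart did: the interval of the oligodendrocyte lineage-like cluster (18.5 to 43.9 CPM) lay above those of cluster 0 (10.1 to 15.1) and the astrocyte-like cluster (5.53 to 12.8). The dividing-like cluster had 17.6 CPM, the collagen-rich clusters 0, 1, 2 and 4 had 12.4 to 15.8 CPM, and the astrocyte-like cluster had 8.63 CPM. Mrps10 was also the one of the 3 genes with UMIs in macrophage and microglia-like cells of WT, at 4 UMIs or 17.6 CPM.

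In Nuc1, Mrps10 went from 104 to 3 UMIs in cluster 0 (log2 ratio −4.51), from 154 to 6 in cluster 1 (−3.60), from 80 to 4 in cluster 2 (−3.93) and from 69 to 4 in the dividing-like cluster (−3.35). In the astrocyte-like cluster the UMIs were 24 and 14, which are 8.63 and 1.57 CPM (−2.46, −3.53 to −1.45). In cluster 4 they were 11 and 11, but over 53 WT and 368 Nuc1 cells, so that the levels were 15.8 and 1.93 CPM (−3.03). In the oligodendrocyte lineage-like cluster 23 WT UMIs stood against 0 in 10 Nuc1 cells, and the interval reached up to 0.36, so that a fall was not detectable at this depth. Nor was a fall detectable in the motile cilia-like cluster (3 and 2 UMIs, interval up to 0.13), cluster 8 (2 and 0, up to 2.03) or the macrophage and microglia-like cluster (4 and 0, up to 2.21).

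**Figure D2:**
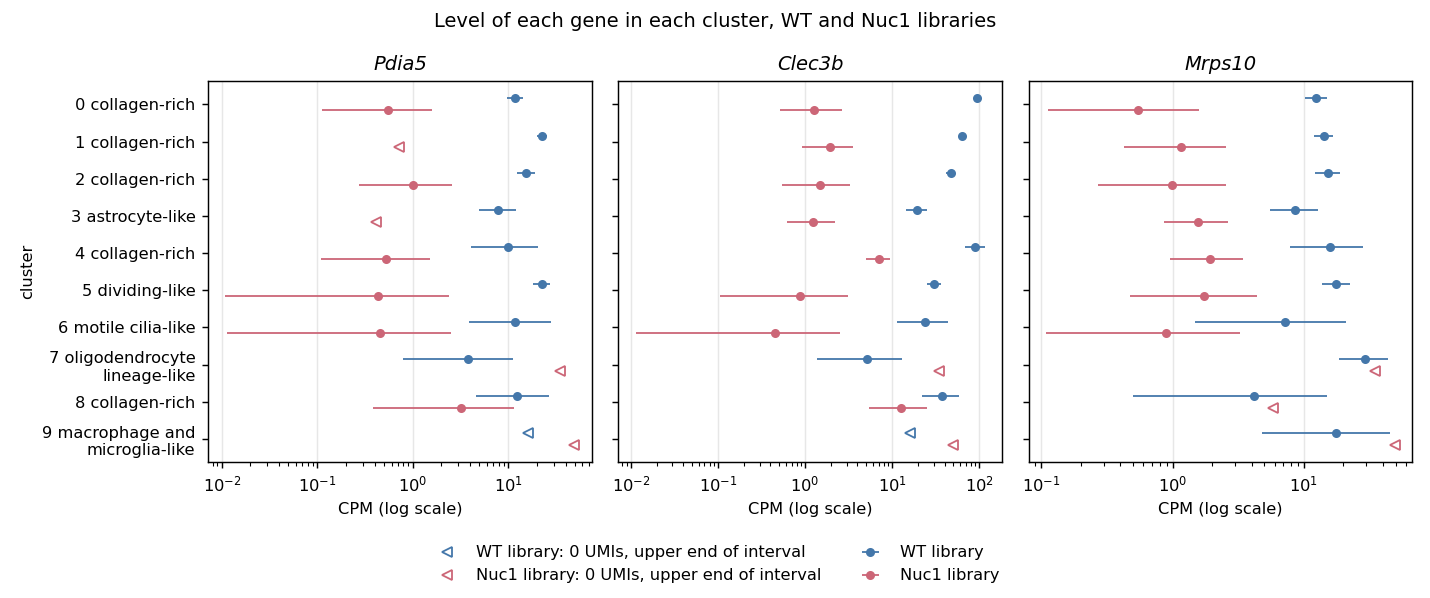
The panels show the level of Pdia5, Clec3b and Mrps10 in CPM on a log axis for each of 10 clusters, with the WT library in blue, the Nuc1 library in red and exact 95% Poisson intervals. Open triangles mark the upper end of the interval where a library had 0 UMIs, and in clusters 0 to 5 every Nuc1 interval or upper end lies to the left of the WT interval. The genes were chosen for this difference, and how many of all genes had intervals apart in these clusters was not counted.

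Summed over the 5 collagen-rich clusters, Pdia5 had 441 UMIs in WT and 12 in Nuc1 (log2 ratio −4.91, −5.87 to −4.09), Clec3b 1795 and 71 (−4.37, −4.73 to −4.03), and Mrps10 351 and 24 (−3.58, −4.24 to −2.98). Without cluster 8, the ratios were −5.13, −4.51 and −3.55. In these clusters 0.765% of 10191 genes were at least 4-fold lower in Nuc1 and 1.42% higher, and in the astrocyte-like cluster 0.606% of 7585 genes were lower and 0.396% higher. The summed level of the 8 listed fibroblast markers (Col1a1, Col1a2, Col3a1, Dcn, Lum, Pdgfra, Postn and Fbln1) was also lower in Nuc1 in the collagen-rich clusters. It was 11540 CPM in WT and 6255 in Nuc1 in cluster 0, and 12849 and 7294 in cluster 1. In clusters 2, 4 and 8 it was 10330 and 6444, 13236 and 10437, and 2868 and 2711. All 8 were detected in each, but the sum does not show how each of the 8 markers moved. Their part in the lower Clec3b was not tested. In the astrocyte-like cluster this sum was 616 CPM in WT and 531 in Nuc1, where Clec3b was also lower. The sum was higher in Nuc1 in the motile cilia-like cluster (172 and 315 CPM) and the macrophage and microglia-like cluster (777 and 858 CPM).

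The clusters had different shares in the libraries, and this can be allowed for. With the WT level of each cluster applied to the Nuc1 UMIs of the same cluster, 458.8 Pdia5 UMIs would be expected in Nuc1, and the 14 observed were 3.05% of them. For Clec3b the 85 observed were 4.56% of 1862.6 expected, and for Mrps10 the 44 observed were 10.2% of 433.1. The same reckoning gave 92.3% for Pdia3, 81.2% for Pdia4, 98.97% for Pdia6, 93.1% for Mrps21 and 74.2% for Clec11a.

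The same difference appeared as fewer cells with a UMI. Pdia5 was found in 427 of 1961 WT cells (21.8%, binomial interval 19.97 to 23.7) and in 14 of 1780 Nuc1 cells (0.787%, 0.431 to 1.32). Clec3b was found in 42.3% and 3.48% of cells, and Mrps10 in 19.8% and 2.42%. Among WT macrophage and microglia-like cells, at a median of 8556 UMIs per cell, 0 of 22 had a UMI of Pdia5 or Clec3b, which allows up to 15.4% by the binomial interval. This limits cells with a UMI, not cells that express the gene. With each cell thinned to 10000 UMIs, which left out 283 WT and 233 Nuc1 cells, the shares were 13.7% and 0.452% for Pdia5, 33.0% and 1.87% for Clec3b, and 12.5% and 0.970% for Mrps10. Thinned in the same way, Pdia3 was found in 98.0% and 96.8% of cells and Mrps21 in 88.3% and 88.2%.

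In WT, 37.2% of cells had no UMI of any of the 3 genes, 43.9% had UMIs of 1 of them, 16.6% of 2 and 2.29% of all 3. In Nuc1 these shares were 93.6%, 6.12%, 0.281% and 0%. Most cells of both libraries thus had UMIs of at most 1 of the 3 genes.

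The UMIs left in Nuc1 were not held by a few cells for Pdia5 and Mrps10. The 14 Pdia5 UMIs lay in 14 cells of 6 clusters, 1 in each cell. The 44 Mrps10 UMIs lay in 43 cells of 7 clusters, with at most 2 in a cell. The 85 Clec3b UMIs lay in 62 cells of 8 clusters, of which 49 had 1 UMI, 7 had 2 and 6 had 3 or more, up to 6. Of these 6 cells 4 were in cluster 4, 1 in cluster 1 and 1 in cluster 8. In WT, 261 cells had 3 or more Clec3b UMIs, up to 16.

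Depth and mitochondrial share were compared beside the levels. With cells of each library split by UMI count into 3 groups of like size, Pdia5 rose from 12.1 CPM in the shallowest to 18.1 in the deepest WT group, and lay between 0.375 and 0.497 in the Nuc1 groups. Clec3b went the other way in WT, from 81.3 to 40.6 CPM, and in Nuc1 from 5.14 to 1.61 CPM. Mrps10 lay between 12.5 and 15.1 CPM in WT and between 1.13 and 1.51 in Nuc1. For each of the 3 genes, chosen for this difference, every WT group lay above every Nuc1 group. Other genes were not split in this way. In cells with at most 10% mitochondrial UMIs the levels in WT and Nuc1 were 20.6 and 0.452 CPM for Pdia5, 61.4 and 2.26 for Clec3b, and 15.5 and 1.22 for Mrps10. In cells above 10% they were 9.05 and 0.320, 53.5 and 2.80, and 11.2 and 1.36.

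The barcodes left out by the filters showed Clec3b in the same way, with 39 UMIs in 146 WT barcodes and 1 in 149 Nuc1 barcodes, or 55.5 (39.4 to 75.8) and 0.869 CPM (0.0220 to 4.84). Pdia5 had 5 and 0 UMIs and Mrps10 5 and 3 there, too few to compare. Within the Nuc1 library, cells with and without a Y-linked UMI had like levels: 0.337 CPM (0.0694 to 0.984) and 0.427 CPM (0.213 to 0.765) for Pdia5, 2.92 and 2.29 for Clec3b, and 1.46 and 1.20 for Mrps10, with overlapping intervals in each pair. A cell without such a UMI can still be from a male. Genotype, sex of the animals and library preparation cannot be told apart between the libraries.

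Among genes with at least 100 UMIs, the families of the 3 genes did not share these values. Of 17 other protein disulfide isomerase genes in the files, 13 had at least 100 UMIs, 8 of them with a log2 ratio below 0 and 5 above, none at least 4-fold, with a median of −0.17. Pdia4, an isomerase induced by unfolded protein, was the lowest at −0.46, with 3106 UMIs in WT and 2316 in Nuc1. Pdia3 (ERp57), which acts on glycoproteins with calnexin and calreticulin, had 15701 and 14959 UMIs (−0.10). Pdia6 had 17094 and 14758 UMIs (−0.25), and P4hb, the founding member and a subunit of prolyl hydroxylase in collagen synthesis, 11061 and 9118 (−0.31). Erp44 (−0.31), Txndc5 (−0.25), Tmx4 (−0.21) and Dnajc10 (−0.17) were also below 0. Tmx1 (0.07), Tmx3 (0.09), Erp29 (0.11), Txndc12 (0.17) and Tmx2 (0.41, from 58 and 79 UMIs) were above 0. Pdia5 at −5.35 lay more than 4 log2 units below the lowest of them.

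Within clusters, the other isomerases with at least 20 UMIs were less than 4-fold lower in every cluster but the macrophage and microglia-like one, where Erp29 was at −2.003. Over the 10 clusters, Pdia3 ran from −0.69 in the macrophage and microglia-like cluster to 0.13 in cluster 8, and Pdia6 from −1.22 in the oligodendrocyte lineage-like cluster to 0.63 in cluster 8. Pdia4 was below 0 in each of 9 clusters with at least 20 UMIs, with intervals below 0 in 4, and reached −1.58 in the oligodendrocyte lineage-like cluster, from 44 and 2 UMIs. In the astrocyte-like cluster, where Pdia5 had no UMI left, Pdia3 was at −0.28 (−0.38 to −0.17), Pdia4 at −0.34 (−0.64 to −0.02) and Pdia6 at −0.27 (−0.39 to −0.14).

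Of 19 genes of endoplasmic reticulum chaperones and the unfolded protein response, 12 were below 0 and 7 above, none at least 4-fold, with a median log2 ratio of −0.11. Hspa5, the chaperone BiP, was at −0.20, and Atf6, the sensor linked to Pdia5, at 0.20. The lowest were Atf4, a transcription factor of the stress response (−1.09), and Hyou1, a chaperone (−0.95), and the highest was Ddit3, the factor CHOP (0.33).

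Of 33 other genes of the small mitoribosomal subunit in the files, 32 had at least 100 UMIs, 13 below 0 and 19 above, with a median log2 ratio of 0.07. They ran from Chchd1 at −0.27 to Mrps18b at 0.71, with Mrps12 (0.09) next to the middle. Of the other Mrps genes, those with the most UMIs over both libraries were Mrps21 (7514 UMIs in WT and 7426 in Nuc1, −0.05), Mrps33 (4910 and 4961, −0.02) and Mrps24 (4594 and 5124, 0.12). The lowest of these 32 genes in the astrocyte-like cluster was Mrps27 at −0.57, against −2.46 for Mrps10. Over all clusters, 1 of them was at least 4-fold lower in a cluster, Ptcd3 at −2.04 in the macrophage and microglia-like cells. The large subunit gave the same picture, with a median of 0.03 over 45 genes and a range from Mrpl33 at −1.02 to Mrpl38 at 0.48. Mrps10 was the one gene of the mitochondrial ribosome at least 4-fold lower among those with at least 100 UMIs.

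Of 30 other C-type lectin genes in the files, 5 had at least 100 UMIs, 4 with a log2 ratio below 0 and 1 just above: Clec2dl1 had a log2 ratio of −1.67, Clec2d2 −1.20, Clec14a −1.16, Clec11a −1.03 and Clec2g 0.01. None of these 5 was at least 4-fold lower. Below 100 UMIs, Clec4a1 had 48 UMIs in WT and 4 in Nuc1, a log2 ratio of −3.62 (−5.55 to −2.17). Clec4a3 (7 and 0 UMIs) and Clec5a (6 and 0) were also lower beyond counting error. Clec1a (15 and 49, 1.67) and Clec2l (25 and 52, 1.02) were higher. All these are sums over all cells, and the spread of these lectins over clusters was not compared. The macrophage and microglia-like cluster held 227820 UMIs of all genes in WT and 74559 in Nuc1. Clec11a, a secreted growth factor of bone and blood-forming tissue, had 5835 UMIs in WT and 2937 in Nuc1. Of 9 genes of the plasminogen system, to which tetranectin binds, 5 had at least 100 UMIs. Plat, tissue plasminogen activator, was higher in Nuc1 (2178 and 5475 UMIs, 1.29). Plaur, the urokinase receptor (−1.37), Hgf, a growth factor related to plasminogen (−1.36), and Plgrkt, a plasminogen receptor (−0.44), were lower.

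**Figure D3:**
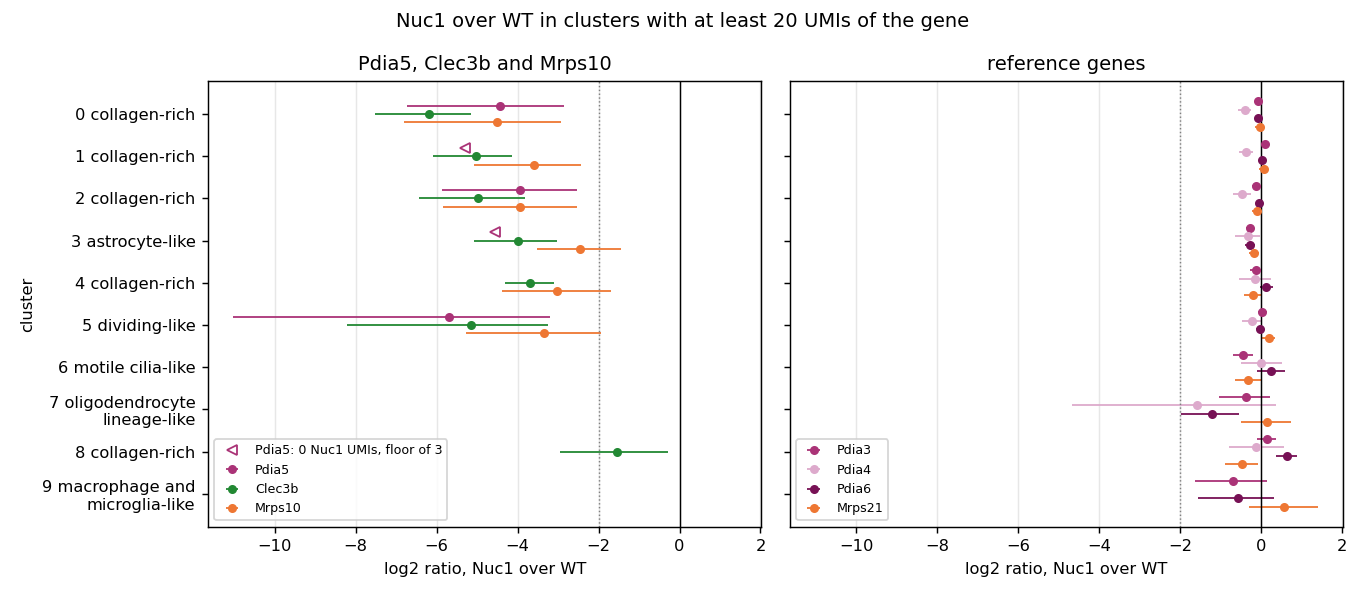
The log2 ratio of Nuc1 over WT is shown with its exact 95% interval for each cluster with at least 20 UMIs of the gene over both libraries, for Pdia5, Clec3b and Mrps10 on the left and for Pdia3, Pdia4, Pdia6 and Mrps21 on the right, with a dotted line at a fold of 4. Open triangles give Pdia5 at the floor of 3 UMIs where Nuc1 had 0, and Clec3b in cluster 8, at −1.55, is the one drawn value on the left above the dotted line; Mrps10 in cluster 7, with 23 WT and 0 Nuc1 UMIs and an interval up to 0.36, is not drawn.

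The genes beside each of the 3 on its chromosome were compared, in the order given by RefSeq for GRCr8 and with 5 genes taken on each side. Of the 10 next to Pdia5, 9 had at least 100 UMIs, with log2 ratios from −0.51 for Adcy5 to 0.86 for Mylk. Its direct neighbour Sec22a had 629 UMIs in WT and 695 in Nuc1 (0.11), while Sema5b on the other side had 4 and 1. Around Clec3b, 7 genes ran from −0.58 for Kif15 to 0.15 for Lars2. The direct neighbour Exosc7 had 1742 and 1454 UMIs (−0.30), and Cdcp1 on the other side had 0 and 9. Around Mrps10, 4 genes ran from −0.84 for its direct neighbour Trerf1 (194 and 111 UMIs) to 0.11 for Taf8, and Guca1b on the other side had 4 and 0. None of these 20 neighbours was at least 4-fold lower.

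**Figure D4:**
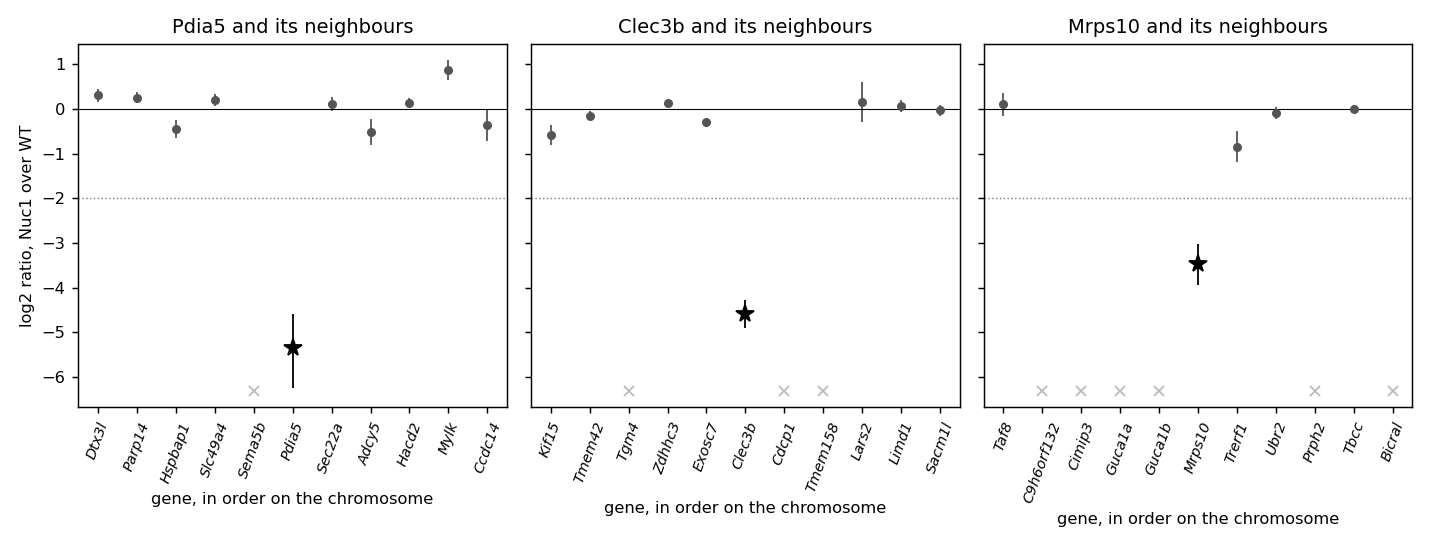
Log2 ratios of Nuc1 over WT with exact 95% intervals are shown for Pdia5, Clec3b and Mrps10 (stars) and for the 5 genes on each side in chromosome order (circles), with crosses at the bottom for genes under 100 UMIs or with no symbol in the files. Stars lie between −5.35 and −3.46 and every circle lies between −0.84 and 0.86.

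To see which genes had the most similar pattern, 9536 genes with at least 20 UMIs in at least 4 clusters were ordered by their highest log2 ratio over those clusters, with 0.5 UMIs added. A ratio below 0 in every such cluster was found in 710 genes (7.45%), and one of 4-fold or more in every such cluster in 6 genes (0.0629%). Pdia5 was at place 2 of this order with a highest ratio of −3.81, and Mrps10 at place 5 with −2.40. The count for Mrps10 takes in the oligodendrocyte lineage-like cluster, where Nuc1 had 0 UMIs, the ratio rests on the 0.5 UMIs added and a fall was not detectable. Clec3b was at place 13 with −1.49, set by cluster 8. The other genes of the 6 were Ftcd at place 1 (−4.63, 264 UMIs in WT and 8 in Nuc1), Tfpi2 (−2.76, 222 and 21), Nr4a3 (−2.50, 700 and 83) and Wnt16 (−2.36, 907 and 108). Ftcd is an enzyme of histidine and folate metabolism, Tfpi2 an inhibitor of serine proteases, Nr4a3 a nuclear receptor and Wnt16 a secreted Wnt ligand. Bdnf, Cyb5r1, Cdh18, Pygl, Sqor and AC111804.2 followed, with highest ratios from −1.89 to −1.50. Places use the same values that chose the 3 genes.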

How the data were processed

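Droplet-based 3′ libraries of 1 WT and 1 Nuc1 sample were processed by the authors with Cell Ranger 3.1.0 and STAR 2.7, and the deposited values are unnormalized counts of UMIs for each gene in each barcode. The genome build is not given in the sources used here, so coordinates belong to the RefSeq promoters of GRCr8 alone. The study's own Seurat versions were 3.1.0 and 3.1.1. Pdia5, Clec3b and Mrps10 and the gene lists were chosen with earlier results of these data known.

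Cells under 500 genes or over 20% mitochondrial UMIs (13 genes) were removed, which left 1968 WT and 1793 Nuc1 cells. Scrublet (scanpy 1.11.5, Python 3.11.15, expected rate 2%) marked 7 (0.356%) and 13 (0.725%) as doublets, which were left out. This is below the expected rate, so doublets can remain. The libraries were integrated by anchors in Seurat 5.3.0 (R 4.3.3) with 2000 variable genes, 30 principal components, a resolution of 0.5 and seed 1. A cluster was called X-like where at least 3 listed markers were among its 10 genes that stood highest in fold over the other clusters' mean (20 CPM added). Other clusters with at least 2000 CPM of 5 matrix genes were called collagen-rich.

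UMIs were summed per library and cluster. Intervals at 95% are exact Poisson for a level, Clopper-Pearson for a share and conditional on the sum for a ratio. A sum of 0 allows 3 counts. For rankings, 0.5 UMIs, in proportion to library size, were added to the sums. Named genes are the 3, the disulfide isomerases, C-type lectins and neighbours with at least 100 UMIs, the lowest, middle and highest and the 3 Mrps genes with most UMIs of the small subunit, and the 10 genes most like the 3 with 5 of the mirrored pattern. Chaperone, large subunit and plasminogen genes were named after their values were seen, as were direct neighbours and C-type lectins with fewer UMIs. The values of 1 listed gene are not reported here. No p-value was computed, since 1 library per genotype allows none. Sums of 11290 genes for the comparison of all cells were simulated, with 200 of them changed. In these, 95.8% of intervals held the true ratio and 100% of changed genes had the planted direction. The sums were drawn as Poisson counts, which the intervals assume. This checks the calculation, not the spread between cells or libraries. Alternatives were a minimum of 200 genes, 10% mitochondrial UMIs, no doublets left out, scaling by TMM (edgeR 4.0.16) or to a median ratio of 0, thinning to 10000 UMIs, means of CPM per cell, equal weight of clusters, other resolutions (0.2 and 1), groups without clustering, every barcode, the richest cell left out and Nuc1 cells with no Y-linked UMI. Leaving out shared barcodes, and cluster 8 from the collagen-rich clusters, was added after the data were seen.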

Additional observations from a re-analysis of the deposited data

How the results depend on the processing

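Pdia5, Clec3b and Mrps10 were at least 4-fold lower in Nuc1 in all 98 values computed under the alternatives. Of these values, 94 lay inside the interval of the reported one. They are point values from the same UMIs, of genes chosen for this difference. For Mrps10 in astrocyte-like cells the intervals also held falls under 4-fold. They were −3.53 to −1.45 as reported, −4.49 to −0.84 with at most 10% mitochondrial UMIs and −5.62 to −1.01 thinned. Filters, scalings, thinning and the mean per cell were run in all cells, astrocyte-like cells and collagen-rich clusters, other resolutions and grouping by markers alone in the last 2, the collagen-rich clusters without cluster 8 there, and the others in all cells. Thinning to 10000 UMIs per cell moved Clec3b in all cells from −4.58 to −4.91, and Pdia5 in astrocyte-like cells, a bound from 0 Nuc1 UMIs at the floor of 3, from −4.56 to −2.88, with 7 WT UMIs left. Giving the clusters equal weight moved Pdia5 from −5.35 to −4.005 and Clec3b from −4.58 to −3.72, with clusters of few UMIs drawn towards 0 by the 0.5 UMIs added. Taking genes with at least 20 UMIs, 239 genes were at least 4-fold lower and 446 higher, and with at least 500 UMIs 64 and 135, against 126 and 284. With at most 10% mitochondrial UMIs, the counts were 87 lower and 386 higher. The mean of CPM per cell gave no value for Pdia5 in astrocyte-like cells, where Nuc1 had 0 UMIs. TMM scaling shifted the astrocyte-like ratios by 0.12 on the log2 scale, where the median of all genes was −0.11, and other groups by less than 0.05. No paired analysis was possible because there was a single library of each genotype. With 1 library each, the values describe these libraries, and levels from fewer than 20 UMIs are not precise.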

Other observations

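The mirrored pattern, a log2 ratio far above 0 in every cluster with at least 20 UMIs, was led by genes of the Y chromosome: Eif2s3y (3 UMIs in WT and 896 in Nuc1), Kdm5d (0 and 204) and Ddx3 (0 and 291). Fcrla (48 and 338) and Inmt, a methyltransferase (93 and 6290), followed. At least 2-fold lower ratios in every such cluster were found in 54 genes and at least 2-fold higher ones in 25, of 9536 genes.

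In WT, cells with a Pdia5 UMI had a UMI of Clec3b or Mrps10 in 60.2% of cases, against 54.1% of all WT cells, and their median was 18910 UMIs against 14050. Cells with a Clec3b UMI had Pdia5 or Mrps10 in 35.9% of cases, against 35.6% of all WT cells, at a median of 14479.5 UMIs.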
